A study of Anolis sagrei with 10 samples.

Results

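Genes that guide muscle precursor cells into the limb and commit them to muscle were measured in forelimb and hindlimb buds of the brown anole (Anolis sagrei, a lizard). The set holds PAX3, PAX7, LBX1, MYF5, MYF6, MYOD1, MYOG, MET and MEOX2. They were chosen by symbol for their roles in limb muscle, with earlier results of these data known. Of these 9 symbols, 8 were paired with a gene identifier in the authors' deposited table, out of 25920 identifiers in all. PAX7 had no identifier under its symbol and was not analysed here. All 8 passed the filter on low counts, which 15595 genes passed in all.

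The embryos were wild type and at stage 7, and RNA of each limb was sequenced in 5 libraries that carry the replicate numbers 1 to 5. No treatment is labelled, so the limb is the only labelled difference between the groups. Limb buds were taken in pairs, per the labels' protocols, and the labels say neither how many embryos a library holds nor what a replicate number marks. P-values therefore measure the spread between these libraries, which may be technical in part. Total counts ran from 41808148 to 54998469 per library, and LBX1, the gene of the 8 with the fewest counts, had between 100 and 301 counts in each. The limb labels matched the limb-type genes, with TBX5 at 428 to 554 CPM (read counts scaled by library size, not by gene length) in forelimb and at most 2.88 CPM in hindlimb, and PITX1 at 0.155 to 0.550 and 25.8 to 44.7 CPM.

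In mouse and chick embryos, limb muscle does not arise from the limb itself. Its precursors leave the lateral lip of the dermomyotome, a part of the somite, and migrate into the bud. PAX3, a paired-box transcription factor, marks these precursors and is needed for the expression of MET, the receptor that lets them detach in response to hepatocyte growth factor (HGF) from limb mesenchyme. LBX1, a homeobox factor, guides their migration, and MEOX2, another homeobox factor, acts in limb muscle formation. The myogenic regulatory factors MYF5 and MYOD1 then commit cells to muscle, and MYOG drives differentiation into contractile fibres. MYF6 acts in commitment and again in fibre maturation. These roles are background from mouse and chick and were not tested in the anole.

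None of the 8 regulators passed the test of forelimb against hindlimb once p-values of the edgeR quasi-likelihood test, paired by replicate number, were adjusted over all tested genes by Benjamini-Hochberg (threshold 0.05). Of all tested genes, 1.33% were called in this comparison, which is less than 1 gene in 8, so a count of 0 says little about these genes. An unadjusted p under 0.05 was given to 2 of the 8, PAX3 and MET, and to 13.8% of all tested genes. DESeq2 with the same block called 1 of the 8, PAX3, and 2.31% of all 22981 genes with a count, low-count genes included. The median log2 fold change of the 8 (log2 ratio of forelimb over hindlimb) was 0.12, and that of all tested genes was 0.00. In bulk tissue, fewer cells of a type and less RNA per cell cannot be told apart, so none of these values separates the number of muscle precursors from their activity.

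**Figure D1:**
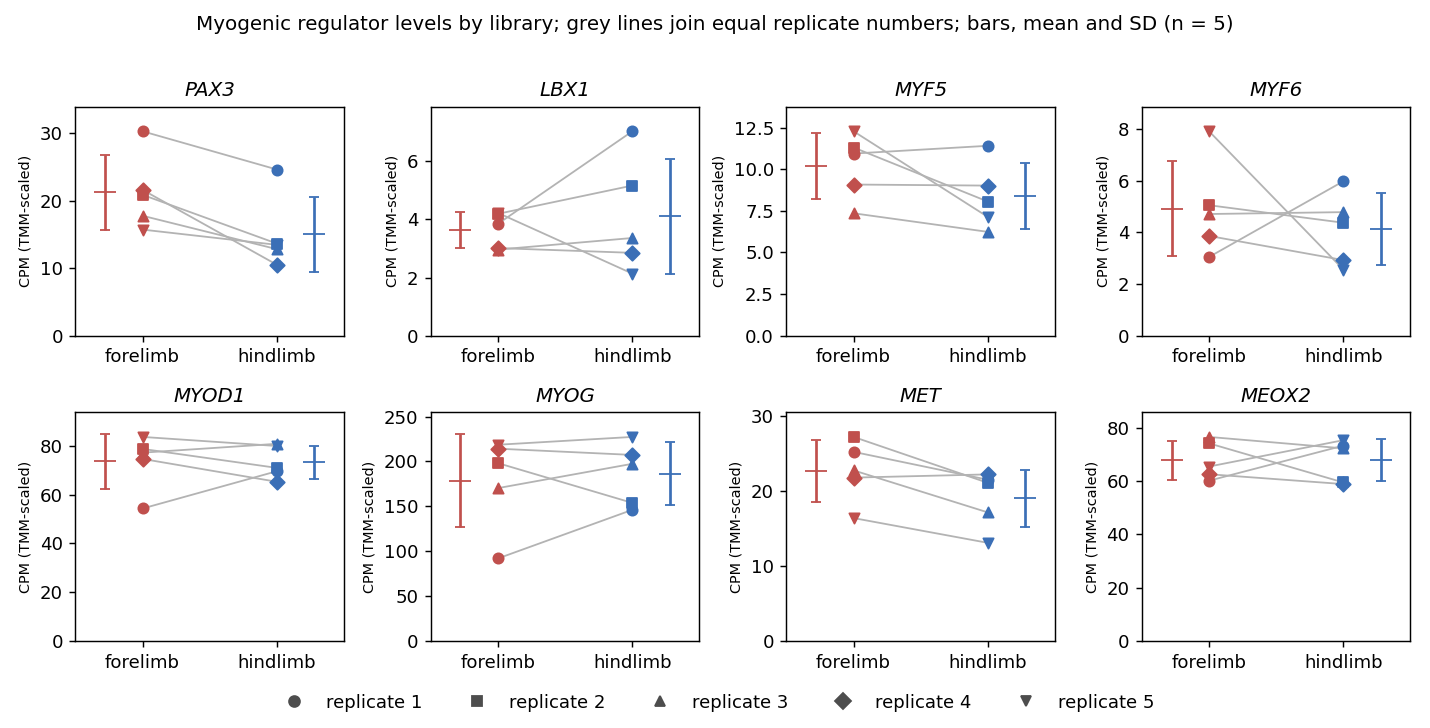
TMM-scaled CPM of the 8 regulators in each library (vertical axis, from 0, its own scale per gene) for forelimb and hindlimb (horizontal axis). Marker shapes give the replicate number, grey lines join equal numbers, and bars give the mean and SD of 5 libraries. PAX3 lies higher in forelimb along all 5 lines, while the lines of the other genes run both ways.

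PAX3 (ENSACAG00000004981) stood nearest to a call. In forelimb replicates 1 to 5 it was at 30.3, 20.9, 17.8, 21.6 and 15.7 CPM, and in the hindlimb libraries of the same numbers at 24.6, 13.6, 12.8, 10.5 and 13.5 CPM. Replicate 1 was highest in both limbs, and the limbs overlapped, since hindlimb replicate 1 lay above 4 of the forelimb libraries. Within every pair of equal number the forelimb was higher, by 1.17 to 2.06 times, as was the case for 7.78% of tested genes. The means were 21.2 CPM ± 5.58 (SD, n = 5) in forelimb against 15.01 CPM ± 5.52 in hindlimb. The log2 ratio was 0.53 ± 0.13 (SE), with a 95% interval of 0.25 to 0.80. Its edgeR adjusted p was 0.0639, so the difference did not pass the threshold.

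The standing of PAX3 depended on the settings. Without replicate number 1 its log2 ratio was 0.59 at an edgeR-adjusted p of 0.0394, and without number 5 it was 0.61 with 0.0484, so it was called in both. Without numbers 2, 3 or 4 the log2 ratio was 0.51, 0.55 and 0.40, and the edgeR adjusted p was 0.256, 0.219 and 0.231. The ratio was thus lowest with number 4 left out. DESeq2 with the block gave 0.00766, and edgeR with no filter on low counts gave 0.00293. The share of all genes called moved too. It was 2.11% without number 1, 0.37% without 2, 0.441% without 3, 0.617% without 4, 1.45% without 5 and 3.03% with no filter. With the pairing left out, the unadjusted edgeR p was 0.0529, and 0 of the 8 were called where 0.199% of all tested genes were. The authors' deposited table gave PAX3 a log2 ratio of 0.30 ± 0.14. By the authors' own test its unadjusted p was 0.0358 and its adjusted p 0.938. The column labels do not say whether that fit was paired or whether its ratios were shrunk toward 0. The deposited ratio is therefore not directly comparable with those above. Unpaired edgeR gave a PAX3 log2 ratio of 0.50 ± 0.24 (SE).

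PAX3 is also a gene of neural crest cells in mouse and chick, so markers of that lineage are given beside it. Of 15 such markers 12 were present and tested, and edgeR, which called 1.33% of all tested genes, called 2 of these 12. Their summed level was 256 to 311 CPM in forelimb and 210 to 303 CPM in hindlimb. SOX10, which defines migrating crest and glia, was at 26.4 CPM ± 5.33 (SD, n = 5) in forelimb against 26.9 CPM ± 11.5 in hindlimb, at an edgeR-adjusted p of 0.899. Hindlimb replicate 4 had a SOX10 level of 7.19 CPM, below the 27.8 to 36.8 CPM of the remaining hindlimb libraries. It was also the library with the least PAX3, and its pair had the largest PAX3 ratio. That library was also low in COL2A1 of the cartilage list, at 406 CPM against 926 to 1256 CPM in the remaining hindlimb libraries. Its summed endothelial level was 59.8 CPM against 93.8 to 138 CPM. Its summed ectoderm level, 665 CPM, was the highest of the hindlimb. Of the crest markers, DCT (28.5 CPM) and ERBB3 (9.61 CPM) lay there within the range of the remaining hindlimb libraries. Of the 12, ETS1 (log2 ratio 0.76 ± 0.12, edgeR adjusted p 0.00669) was higher in forelimb, and DCT, a melanin synthesis enzyme (-0.49 ± 0.11, edgeR adjusted p 0.0450), was higher in hindlimb. ETS1, a transcription factor, is also made by endothelium. ETS1 lost its call without numbers 3 (0.0549) or 4 (0.0536), and DCT without 2 (0.209), 3 (0.184), 4 (0.175) or 5 (0.114). None of the 12 was at 0 in any library, and their part in the PAX3 values was not tested.

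MET (ENSACAG00000008309), the receptor for HGF, followed PAX3 in the ranking of the 8 by p. It was at 25.3, 27.3, 22.8, 21.8 and 16.4 CPM in forelimb replicates 1 to 5 and at 21.6, 21.1, 17.2, 22.3 and 13.1 CPM in the hindlimb libraries of the same numbers. Forelimb was higher in 4 of 5 pairs, with replicate 4 the exception, and replicate 5 was lowest in both limbs. At least 4 of 5 pairs were higher in forelimb for 24.7% of all tested genes. The log2 ratio was 0.26 ± 0.10 (SE), at an edgeR-adjusted p of 0.287.

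LBX1 (ENSACAG00000022501) had the fewest counts of the 8. Its forelimb values in replicates 1 to 5 were 3.85, 4.20, 2.96, 3.01 and 4.23 CPM, and its hindlimb values were 7.04, 5.17, 3.36, 2.85 and 2.14 CPM. The forelimb libraries lay close together, while the hindlimb libraries spread 3.30-fold and held both the highest and the lowest value. The ratio of forelimb to hindlimb CPM ran from 0.548 in pair 1 to 1.98 in pair 5. The log2 ratio was -0.07 ± 0.25, with a 95% interval of -0.62 to 0.48, so differences of either direction within those bounds could not be resolved at this spread.

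MEOX2 (ENSACAG00000012882) had the smallest limb difference of the 8. Forelimb replicates 1 to 5 were at 60.1, 74.1, 76.5, 62.6 and 65.4 CPM, and hindlimb replicates at 73.3, 59.5, 72.2, 58.9 and 75.3 CPM. The limbs covered nearly the same range and neither was higher in more than 3 of 5 pairs. The 95% interval of the fold, forelimb over hindlimb, ran from 0.877 to 1.14. MEOX2 was also the steadiest of the 8 within forelimb, with a coefficient of variation of 10.6%; 20.9% of tested genes had a smaller one.

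Of the commitment factors, MYF5 (ENSACAG00000014431) was at 10.9, 11.3, 7.35, 9.08 and 12.3 CPM in forelimb replicates 1 to 5 and at 11.4, 8.05, 6.24, 9.02 and 7.13 CPM in hindlimb. Forelimb was higher in 4 of 5 pairs, but in pair 4 by only 1.01 times. The log2 ratio of MYF5 was 0.29 ± 0.16 (SE), at an edgeR-adjusted p of 0.441.

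MYOD1 (ENSACAG00000000054), which with MYF5 sets cells on the muscle path, was at 54.3, 78.7, 77.2, 74.6 and 83.6 CPM in forelimb and at 69.6, 70.9, 80.8, 65.2 and 79.9 CPM in hindlimb. Forelimb replicate 1 was the lowest of all 10 libraries. The means were nearly equal, at 73.7 CPM ± 11.3 (SD, n = 5) and 73.3 CPM ± 6.78 (SD, n = 5). The 95% interval of the fold, forelimb over hindlimb, was 0.881 to 1.13, which is the narrowest of the 8.

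MYOG (ENSACAG00000004818), the factor at the entry into differentiation, was at 92.2, 198, 170.4, 214 and 219 CPM in forelimb replicates 1 to 5. In hindlimb it was at 146, 154, 197, 207 and 227 CPM. Replicate 1 was lowest and replicate 5 highest in both limbs, and the limbs overlapped almost fully. The log2 ratio was -0.10 ± 0.12 (SE), at an edgeR-adjusted p of 0.780 and a 95% interval of -0.38 to 0.17.

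MYF6 (ENSACAG00000022851) was at 3.05, 5.06, 4.71, 3.86 and 7.92 CPM in forelimb and at 5.98, 4.38, 4.79, 2.93 and 2.56 CPM in hindlimb. Forelimb replicate 5 was the highest library and hindlimb replicate 5 the lowest, and the SE of 0.30 was the largest of the 8. The pair ratios of forelimb to hindlimb ran from 0.510 in pair 1 to 3.09 in pair 5, and the 95% interval of the log2 ratio was -0.42 to 0.90 around 0.24. In RefSeq's brown anole assembly MYF6 and MYF5 are direct neighbours with no overlap between them. That assembly is not known to be the one the counts were made on. The identifiers of the counts start with ENSACAG and do not match those of RefSeq.

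**Figure D2:**
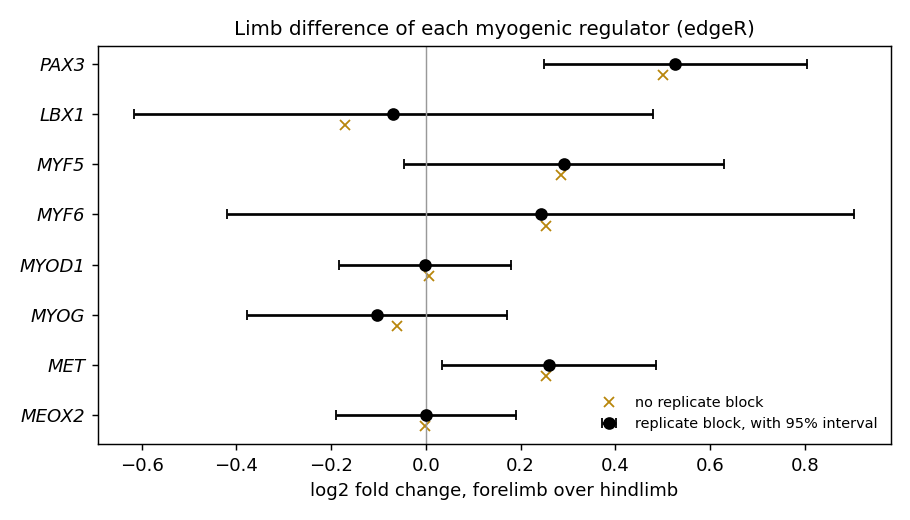
Log2 fold change of each regulator, forelimb over hindlimb (horizontal axis), with its 95% interval from the edgeR fit paired by replicate number (points) and the estimate with the pairing left out (crosses). The intervals of PAX3 (0.25 to 0.80) and MET (0.03 to 0.49) lie above 0 before adjustment over all genes, and those of the other 6 include 0.

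Some regulators moved with the replicate number in both limbs. A test of the replicate number in the same edgeR fit, added after the values had been seen, called 3 of the 8 at an adjusted p under 0.05, against 25.8% of all tested genes. They were PAX3 (edgeR adjusted p 0.0149), MET (0.0331) and MYOG (0.0396). PAX3 was no longer called without number 1 (0.818), MET not without numbers 2 (0.0741) or 5 (0.498), and MYOG not without numbers 1 (0.124), 4 (0.0887) or 5 (0.0864). A count of 3 in 8 is near the share of all genes, so it does not set the regulators apart.

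In replicate 1 of both limbs PAX3 was at its highest and MYOG at its lowest. The ratio of PAX3 to MYOG CPM, which depends on the lengths of both genes and is compared here only between libraries, was 0.329 in forelimb replicate 1 and 0.0719 to 0.105 in the other forelimb libraries. In hindlimb replicate 1 it was 0.168, and 0.0507 to 0.0886 in the others. Given those levels, the ratio of PAX3 to MYOG had to be highest in replicate 1. The ratio of MYOG to MYOD1 CPM reuses the same MYOG values and is not a separate observation. This second ratio was lowest in replicate 1 of both limbs, at 1.70 in forelimb and 2.10 in hindlimb. It reached 2.87 in forelimb replicate 4 and 3.18 in hindlimb replicate 4, the highest of each limb.

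Genes of differentiated muscle were then read from a list of 53 that encode contractile proteins, fusion factors and parts of the nerve-muscle synapse. Of these, 37 were present and tested, and 0 were called in either direction by edgeR, which called 1.33% of all tested genes. The 37 had 22 positive and 15 negative log2 ratios, with a median of 0.04. An unadjusted p under 0.05 had 5 of them, against 13.8% of all tested genes. They were CDH15, MUSK, NEB, MSTN and MYPN, with log2 ratios of 0.40, 0.45, 0.24, 0.21 and 0.50. DESeq2 with the block called 0, against 2.31% of all genes. The genes of the list with the most counts were ACTC1 and ACTA1 (sarcomeric actins), MYLPF (a fast myosin light chain) and CKM (muscle creatine kinase). ACTC1 was at 1113 CPM ± 458 (SD, n = 5) in forelimb against 1075 CPM ± 249.7 in hindlimb. Log2 ratios were -0.04 for ACTC1, -0.09 for MYLPF, 0.07 for ACTA1 and 0.23 for CKM, with SE of 0.21 to 0.29.

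The same genes differed widely between libraries of a limb. Their summed level in forelimb replicates 1 to 5 was 1557, 4054, 4207, 3617 and 5696 CPM, and in hindlimb replicates 2909, 3176, 3985, 3058 and 4769 CPM. Forelimb replicate 1 was the lowest forelimb library for 33 of the 37 genes, and forelimb replicate 5 the highest for 25. In hindlimb, replicate 5 was highest for 18 genes, and the lowest place was shared mainly by replicates 4 and 1, with 17 and 13 genes. Forelimb replicate 1 also stood apart in blood markers, with a summed level of 10 blood markers of 172 CPM against 37.2 to 53.9 CPM in the other forelimb libraries; the part of that in the muscle values was not tested. Leaving out replicate number 1 in both limbs led edgeR to call 3 of the 37, CDH15, CACNA1S and TNNT2, all higher in forelimb, where 2.11% of all genes were called.

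**Figure D3:**
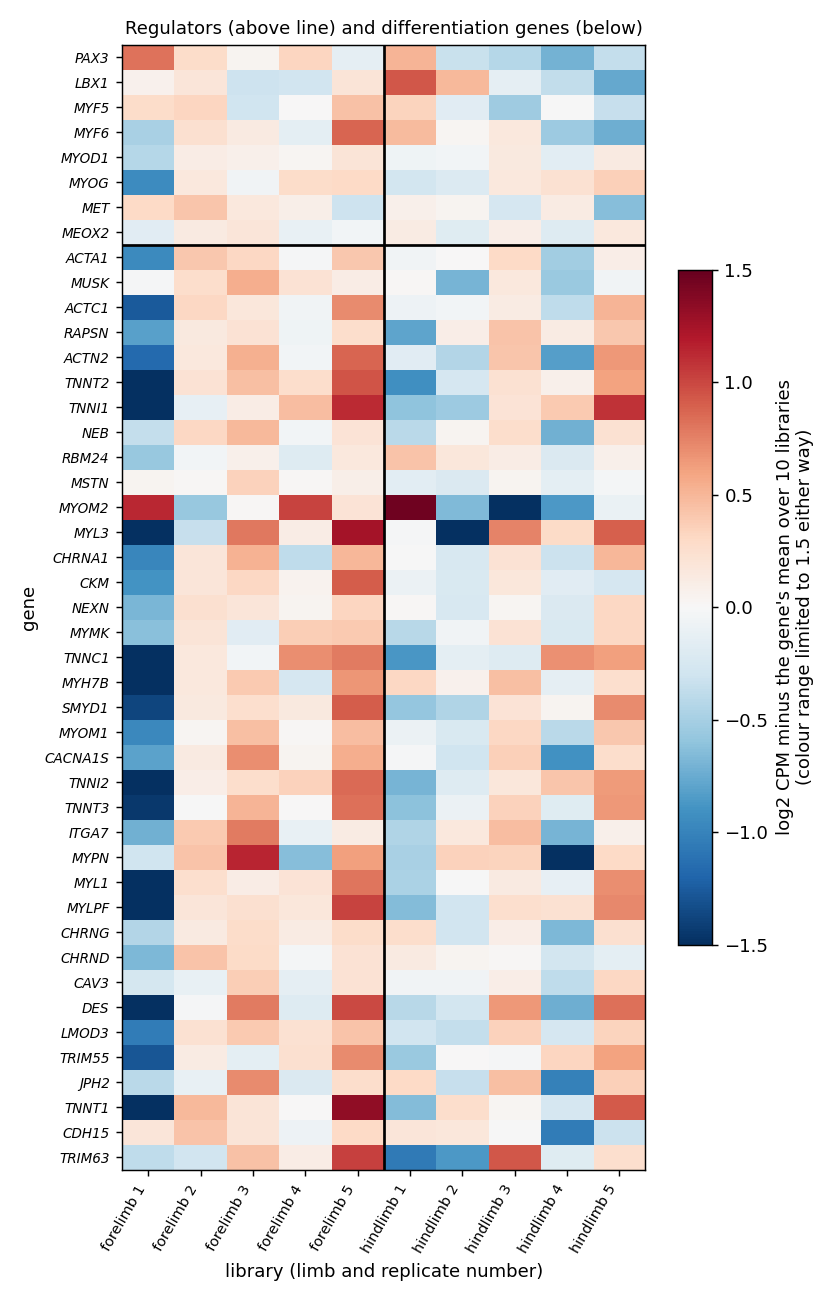
Log2 CPM of the 8 regulators (above the black line) and 37 tested differentiation genes (below it) in each library, as the difference from the gene's mean over 10 libraries; colours stop at 1.5 either way. Forelimb replicate 1 is the lowest forelimb library for 33 of the 37 differentiation genes while PAX3 is highest there, and no block of colour parts the limbs.

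Migration and guidance of muscle precursors were read from a list of 11 genes, ligands as well as receptors and an adaptor, all present and tested. EdgeR, which called 1.33% of all tested genes, called 1 of the 11, higher in forelimb, and 0 higher in hindlimb. It was EPHA4, a receptor for ephrins that steers cells in the mouse and chick limb, at 343 CPM ± 29.6 (SD, n = 5) in forelimb against 278 CPM ± 23.2 in hindlimb. Its log2 ratio was 0.30 ± 0.07 (SE), at an edgeR-adjusted p of 0.0438 and forelimb higher in 5 of 5 pairs. The call was lost without numbers 1 (0.0685), 2 (0.155), 3 (0.201) or 4 (0.130) and with the pairing left out (0.601). DESeq2 with the block called 4 of the 11, against 2.31% of all genes, low-count ones included. EPHA4 and RET were higher in forelimb, and CXCL12 and GFRA1 were higher in hindlimb.

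HGF, the ligand of MET, was at 7.34, 4.15, 7.40, 4.03 and 5.77 CPM in forelimb and at 7.18, 3.98, 5.11, 4.78 and 5.53 CPM in hindlimb, with replicate 2 near the low end in both limbs. Its log2 ratio was 0.09 ± 0.17 and its edgeR adjusted p 0.875. GAB1, an adaptor that relays MET signals, had a log2 ratio of 0.08 ± 0.09. CXCR4, a chemokine receptor of migrating precursors, had 0.03 ± 0.11. Its ligand CXCL12 was at 5.39 to 7.17 CPM in forelimb and 8.82 to 10.3 CPM in hindlimb, with no overlap, which 1.19% of all tested genes showed. The log2 ratio of CXCL12 was -0.62 ± 0.15 at an edgeR-adjusted p of 0.0603, so it was not called. FGFR4, a fibroblast growth factor receptor found in limb muscle precursors, had 0.14 ± 0.12, and ACKR3, a scavenger receptor for CXCL12, had 0.24 ± 0.08 at an edgeR-adjusted p of 0.201.

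Upstream regulators and partners of the myogenic factors formed a list of 25, of which 20 were present and 19 tested. TCF21 had no counts in 3 of the 10 libraries and was not tested. The median log2 ratio of the 19 was 0.10. Where edgeR called 1.33% of all tested genes, it called 1 of these 19, to the forelimb side. It was TCF4, an E protein that pairs with myogenic factors, at 447 CPM ± 29.0 (SD, n = 5) and 362 CPM ± 20.7, a log2 ratio of 0.30 ± 0.06 at an edgeR-adjusted p of 0.0310. TCF4 is made in many other cell types as well. The call was lost without numbers 2 (0.183), 3 (0.208) or 4 (0.0755) and with the pairing left out (0.418). DESeq2 with the block called 4 of 20, against 2.31% of all genes, low-count ones included. TCF4, EYA4 and SIX4 were higher in forelimb, and MSC was higher in hindlimb. Next to TCF4 in counts on this list, ID2, TCF12 and DACH1 had log2 ratios of 0.10, 0.17 and -0.15.

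**Figure D4:**
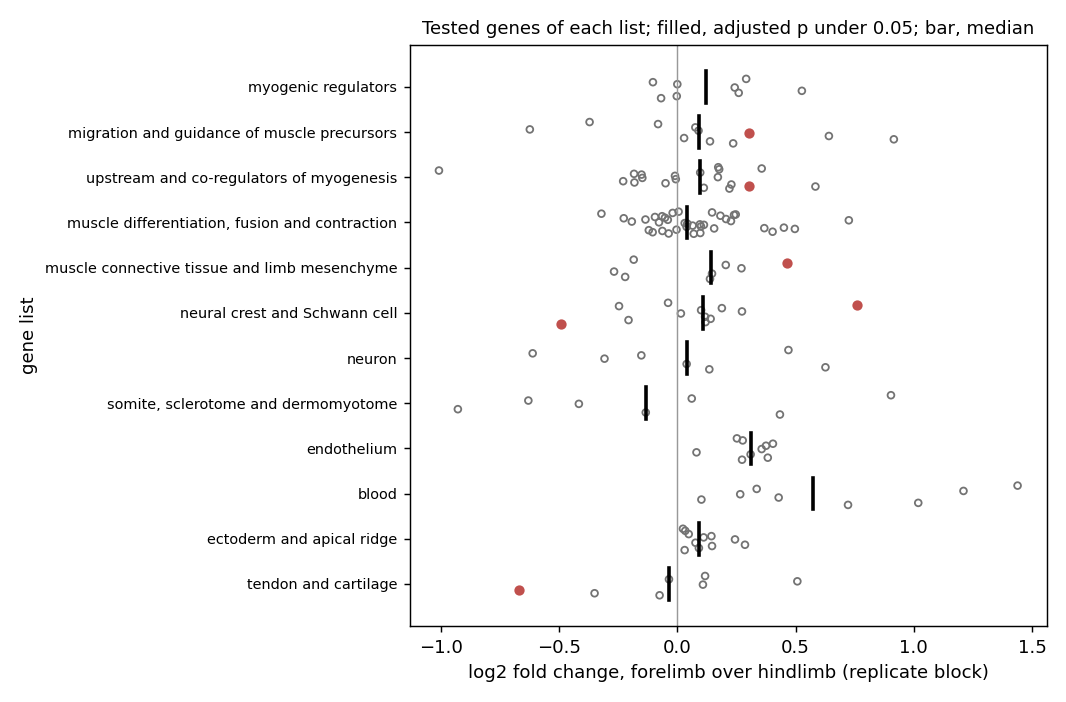
Log2 fold changes, forelimb over hindlimb (horizontal axis), of the tested genes of each list (rows) from the edgeR fit with the replicate block; filled points passed an adjusted p under 0.05 and bars are medians. None of the 8 myogenic regulators and none of the 37 differentiation genes is filled, and 6 of the 136 list genes beside the regulators, those 37 included, are.

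Across all lists beside the 8 regulators, 6 of 136 tested genes passed the threshold. The forelimb was the higher limb for 4 (2.94%) and the hindlimb for 2 (1.47%), where the shares of all tested genes were 0.705% and 0.628%. The lists were chosen with earlier results of these data known, so these shares are descriptions only. OSR2, a zinc finger factor of limb connective tissue, was at 36.5 CPM ± 3.88 (SD, n = 5) and 26.7 CPM ± 4.97, a log2 ratio of 0.47 ± 0.10 at an edgeR-adjusted p of 0.0432. MKX, a homeobox factor of tendon cells, was higher in hindlimb, at 21.8 CPM ± 4.41 and 34.6 CPM ± 6.59, a log2 ratio of -0.67 ± 0.11 at an edgeR-adjusted p of 0.0110. OSR2 lost its call without numbers 2 (0.133), 3 (0.203), 4 (0.172) or 5 (0.0941), and MKX without number 2 (0.0933). All 6 lost it with the pairing left out.

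Markers of other cell types that a bud can hold were read in the same fit. Of all tested genes, that edgeR fit called 1.33% and gave 13.8% an unadjusted p under 0.05. It gave 7804 of the 15595 tested genes a positive log2 ratio. Of the mesenchyme list, 8 of 15 genes were tested with OSR2 the sole call, and the members with the most counts, MSX2, OSR1, MSX1 and TWIST1, had log2 ratios of 0.27, -0.22, -0.18 and -0.27. Of the tendon and cartilage list, 7 of 10 were tested with MKX the sole call, and COL2A1, SOX9, SOX5 and SOX6 had -0.07, -0.04, 0.11 and -0.35. Of 15 endothelial genes 9 were tested and 0 called. All 9 estimates were positive, with 3 at an unadjusted p under 0.05 and a median of 0.31. Summed levels of the 10 present were 95.3 to 159 CPM in forelimb and 59.8 to 138 CPM in hindlimb. SOX18, FLT4, TEK and CDH5 had log2 ratios of 0.40, 0.28, 0.08 and 0.27. Of 14 blood markers 8 were tested and 0 called, with 2 at an unadjusted p under 0.05 and a median of 0.58. Summed levels of the 10 present were 37.2 to 172 CPM in forelimb and 24.2 to 55.5 CPM in hindlimb. All 8 estimates were positive, with SPTB, ALAS2, SLC4A1 and TSPO2 at 0.34, 0.72, 1.02 and 0.43. In forelimb replicate 1, ALAS2 was at 60.005 CPM and SLC4A1 at 67.3 CPM. In forelimb replicates 2 to 5 these genes reached at most 5.37 and 3.85 CPM. Hindlimb replicate 1 was the highest hindlimb library for both, with ALAS2 at 9.21 CPM and SLC4A1 at 10.01 CPM. Its summed blood level, 55.5 CPM, was also the highest of the hindlimb. For ALAS2 and SLC4A1, hindlimb replicates 2 to 5 reached at most 5.63 and 5.47 CPM. SPTB was not raised in forelimb replicate 1, at 25.4 CPM against 23.9 to 39.4 CPM in the other forelimb libraries. How far the ratios of the blood list depended on that library was not tested. EPOR, GFI1B and TAL1 of that list, and LYVE1 of the endothelial list, had no counts in at least 1 library. Ectoderm gave 11 tested of 14, 0 called, all 11 estimates positive and a median of 0.09, with summed levels of 503 to 575 and 436 to 665 CPM and with KRT18, KRT8, EPCAM and CDH1 at 0.02, 0.11, 0.03 and 0.03. The part of these cell types in the PAX3 and MET values was not tested.

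Somite genes were read as possible markers of trunk tissue carried along with a bud. Whether these genes are made only in trunk tissue was not tested, so their levels do not measure such tissue. Their summed level was 7.24 to 17.6 CPM in forelimb and 12.3 to 20.2 CPM in hindlimb, and of 12 listed 7 were tested and 0 called. SIM1, EN1, PAX1 and TCF15 had log2 ratios of -0.42, 0.43, -0.63 and 0.06. Nerve markers summed to 26.8 to 41.5 CPM in forelimb and 33.2 to 42.3 CPM in hindlimb, with 7 of 12 tested and 0 called, and with GAP43, SYT1, ELAVL4 and NEFM at 0.04, -0.61, -0.15 and -0.31. The crest markers SOX8, EDNRB and TFAP2A had -0.04, 0.10 and 0.27. An unadjusted edgeR p under 0.05 was given to 0 of the somite genes, 0 of the ectoderm genes and 1 of the nerve genes, SYT1. Of all tested genes 13.8% had such a p, and 1.33% were called. DESeq2 with the block called 1 endothelial gene (SOX18), 1 nerve gene (SYT1) and 0 of the blood, ectoderm and somite genes, against 2.31% of all genes.

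Genes whose profile over the 10 libraries was most like that of each regulator were ranked by Pearson's r of log2 CPM among 9478 genes with a symbol and a mean of at least 1 CPM. The 10 libraries form 5 pairs and share depth and composition, and the leading r of so many genes is high by selection, so these are descriptions without a test. MYOD1 was matched most closely by MEF2C, a muscle transcription factor (r = 0.97, rho = 0.93), then by ACTC1, KLHL31, TXLNB and LMOD3 (r of 0.96 to 0.97). MYOG was matched by TNNI2 (r = 0.97, rho = 0.93), GRAMD1C, GPM6B, TNNI1 and METTL11B. TNNI2 and TNNI1 are troponin subunits of the contractile filament. Together, 4 of the 40 genes named for the 8 regulators were on the differentiation list, all of them for MYOD1 or MYOG, while 0.390% of the ranked genes were on it.

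For the other regulators, 2 of the genes named were on a list, EN1 and SCX. PAX3 was most like TAF3 (r = 0.98, rho = 0.99), CHD2, SLCO2A1, VPS26B and TTYH3. MET was most like USP28 (r = 0.94, rho = 0.93), GOT1, SMOX, RPUSD3 and ALDOA, and LBX1 like ZIC2 (r = 0.94, rho = 0.85), SCAP, GGNBP2, VPS72 and EHD1. MYF5 was most like EN1 (r = 0.92, rho = 0.94), BCL2L1, CORO1B, TONSL and SEMA4F. MYF6 was most like FURIN (r = 0.92, rho = 0.94), RELB, CLK3, SCX and PPP1R13L, of which SCX is a tendon factor. MEOX2 was most like LRFN2 (r = 0.96, rho = 0.89), AFAP1L1, DMGDH, CARMIL1 and LOXL4.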

How the data were processed

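RNA of stage 7 forelimb and hindlimb buds was sequenced in 10 libraries, 5 per limb, after a stranded, poly(A)-selecting preparation, per the labels' protocols. FastQC, STAR, featureCounts and DESeq2 were used, per the submitters' processing notes; versions, genome build, annotation and strand setting are not given in the sources used here. The deposited tables hold raw read counts per gene and library. A further table deposited by the authors compares the limbs and, per the file headers, gives a normalised mean count (a signal), a log2 fold change with its SE, a test statistic (a score) and p-values. It paired 12476 of 25920 identifiers with a symbol, and these symbols found the members.

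Counts were fitted in R 4.3.3 by edgeR 4.0.16 (robust quasi-likelihood test), with TMM scaling (factors 0.928 to 1.03), edgeR's default low-count filter (at least 10 counts in enough libraries and 15 in total) and the replicate number as a block. Benjamini-Hochberg adjustment ran over 15595 genes, with a threshold of 0.05. CPM are TMM-scaled and not per length, so levels were not compared between genes. The labels do not say what a number marks. Deviations from the limb means over 9747 genes averaging 8 CPM or more correlated at 0.511 to 0.754 for equal numbers and at -0.406 to 0.118 for different ones, so the numbers were taken to pair the libraries. Libraries of a limb all differed by more than sampling noise (lowest chi-square per degree of freedom 34.3). Alternatives were no block, RLE or upper-quartile scaling, no filter, DESeq2 1.42.0 with the block, and each replicate number left out. With no filter and with DESeq2, shares of all genes were taken over 22981 genes, low-count ones included. Of the 140 list genes present beside the regulators, 136 passed the filter, so those shares are not like for like with the lists.

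Members and lists were chosen with earlier results of these data known. Named were all members, list genes past the threshold, the 4 genes of each list with the highest mean CPM, and the 5 genes most like each member. HGF, CXCR4, CXCL12 and list genes named for an unadjusted p or in the closing section were added after their values were seen. RefSeq's gene table (rAnoSag1.mat) served for names of neighbouring genes only, and no sequence or coordinate was used here.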

Additional observations from a re-analysis of the deposited data

Results flagged for a closer look

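In 40 sets of 5 libraries, 4 held a library whose distance from its nearest neighbour took up more than 0.71 of the set's whole range, where chance gives about 1 in 20. PAX3 in hindlimb replicate 1 was at 24.6 CPM, against 10.5 to 13.6 CPM in the other hindlimb libraries. The summed level of the migration and guidance genes in hindlimb replicate 4 was 554 CPM, against 737 to 774 CPM. The summed level of blood markers in forelimb replicate 1 was 172 CPM, against 37.2 to 53.9 CPM. The total count of forelimb replicate 4 was 54998469, against 42151036 to 45608067 in the other forelimb libraries.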

How the results depend on the processing

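With the replicate block, 208 genes were called. With no replicate block there were 31, with no filter 697, with DESeq2 532, and with 1 replicate number left out between 58 and 330 (330 without number 1, 58 without 2, 69 without 3, 97 without 4). Of the 8 regulators, 0 were called with the block or without it, 1 with no filter, 1 with DESeq2, and 0 to 1 with a number left out; each was PAX3. Of the other pathway genes 6 were called with the block, 0 with no replicate block, 19 with no filter, 14 with DESeq2, and 1 to 13 with a number left out (13 without 1, 1 without 2, 3 or 4). With the block, no block, no filter and DESeq2 these were 4.41%, 0%, 13.6% and 10% of the pathway genes. The shares of all genes were 1.33%, 0.199%, 3.03% and 2.31%, those with no filter and with DESeq2 over 22981 genes, low-count ones included. The pathway lists were chosen with earlier results of these data known, so these shares do not test for an excess. The number of regulators that varied with the replicate number was 1 to 3 with a number left out. Of 80 alternative log2 fold changes of the regulators, 64 kept sign and side of the threshold, 4 (PAX3) passed it, and 12 changed sign, none of them called. The sign changes were MEOX2 with no replicate block (-0.0017) and with a number left out (-0.073 to 0.078), MYOD1 with no replicate block (0.0076), with upper-quartile scaling (0.0079) and with a number left out (-0.051 to 0.092), and, with a number left out, MYOG (-0.21 to 0.042), LBX1 (-0.32 to 0.14) and MYF6 (-0.088 to 0.55). The cause was not tested. LBX1 and MYF6 had 100 to 360 counts per library. MEOX2 and MYOD1 had 2292 to 4034, and their log2 ratios with the block were 0.0001 and -0.0022.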

Other observations

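Further genes of the pathway lists did not pass the edgeR threshold but were called by DESeq2 with the replicate block. RET, GFRA1, EYA4 and SIX4 went the same way in all 5 pairs, which 14.8% of all tested genes did. Since that fit used the same pairs, their agreement across pairs and any lack of overlap between the limbs add no separate support. RET, a receptor for glial cell line-derived factors, was at 26.2 CPM ± 13.3 (SD, n = 5) in forelimb against 13.6 CPM ± 6.08 in hindlimb, a log2 ratio of 0.92 ± 0.20 at an edgeR-adjusted p of 0.0573. Its co-receptor GFRA1 went the other way, at 40.2 CPM ± 1.47 and 52.4 CPM ± 7.64, a log2 ratio of -0.37 ± 0.08 at an edgeR-adjusted p of 0.0522 and no overlap between the limbs. EYA4, a transcriptional co-activator, was at 83.0 CPM ± 20.2 and 54.6 CPM ± 6.59, at an edgeR-adjusted p of 0.0603 and no overlap. No overlap between the limbs was seen for 1.19% of all tested genes. SIX4 was higher in forelimb in 5 of 5 pairs, with a log2 ratio of 0.36 ± 0.10 and edgeR gave an adjusted p of 0.109. MSC, a basic helix-loop-helix repressor of myogenic factors, had -1.01 ± 0.26, an edgeR adjusted p of 0.131 and hindlimb higher in 4 of 5 pairs.

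In RefSeq's brown anole assembly PAX3 lies directly beside EPHA4. Both were higher in forelimb in 5 of 5 pairs, as were 7.78% of all tested genes, with log2 ratios of 0.53 and 0.30. The main edgeR fit did not call PAX3, and EPHA4 lost its call without numbers 1, 2, 3 or 4. The pair was named after its values were seen, and no test of their joint behaviour was made. That assembly is not known to be the one the counts were made on.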
